A study of Sus scrofa with 6 samples.

Results

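KIT is the receptor tyrosine kinase that binds KIT ligand, also called stem cell factor. Its level was read from the single probe of the array whose only gene symbol is KIT, 1 of 12258 probes, of which 10715 carried 1 gene symbol. It was chosen by its lower measured level after maturation in earlier results of these data, so its own values are described here without a test. The compared oocytes came from pubertal crossbred Landrace gilts, whose ovaries were collected at slaughter. The matured group held 3 pools of 50 oocytes whose cumulus-oocyte complexes, oocytes still enclosed in their somatic cumulus cells, were kept for 44 h at 38 °C under 5% CO2. Their medium, TCM-199, contained albumin, cysteine, porcine follicular fluid, hCG and eCG. The group before maturation held 3 pools of 50 oocytes from the same kind of animal, which the titles call in vivo oocytes. Each pool gave 1 Affymetrix array, hybridised with cDNA from 100 ng of total RNA after 2 rounds of amplification, and the design text speaks of a dye test whose outcome the sample labels leave out.

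In the ovary KIT is known from the surface of the oocyte, while its ligand is made by the surrounding granulosa cells. Binding of the ligand joins receptors in pairs and switches on their kinase domains, from which signals run through PI3K, AKT and the transcription factor FOXO3 and through RAS and the MAP kinases. In mice this pathway is known for the survival of germ cells and for the activation and growth of the oocyte. White pig breeds, Landrace among them, are known to carry a duplicated KIT gene with a splice mutation in a copy, the basis of their coat colour. The KIT genotype of these gilts is not given in the labels. A single probe value does not separate gene copies or splice forms.

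KIT was lower in every matured pool than in any pool before maturation. Its log2 levels were 8.72, 8.62 and 8.65 after maturation, against 9.84, 9.62 and 10.17 before it, for replicates 1, 2 and 3. The highest matured array lay 0.90 below the lowest array before maturation, so the groups did not overlap. Arrays did not overlap in this direction for 14.4% of all probes.

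The group means were 8.66 ± 0.05 after maturation and 9.88 ± 0.28 before it (SD, n = 3 each). Their difference, after minus before, was -1.22 on the log2 scale with a standard error of 0.14, a measured 2.32-fold lower level. A decrease at least as large was measured for 289 probes, 2.36% of all. Between arrays of the same replicate number the differences were -1.13, -0.997 and -1.52. In pools of cells, fewer cells of a type and less RNA per cell cannot be told apart, and effects of maturation and of the culture medium cannot be told apart.

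The matured arrays lay closer together in KIT than the arrays before maturation did. The SD of KIT was 0.0484 after maturation, smaller than that of most probes, whose median was 0.116. Before maturation it was 0.276, where the median probe had 0.133 and 85.7% of probes had a smaller value. Replicate 3 before maturation held the highest KIT level. Without it the difference was -1.07. In all 6 arrays KIT lay above the upper quartile of probe levels (7.80 to 7.88 after maturation and 7.90 to 7.92 before it).

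**Figure D1:**
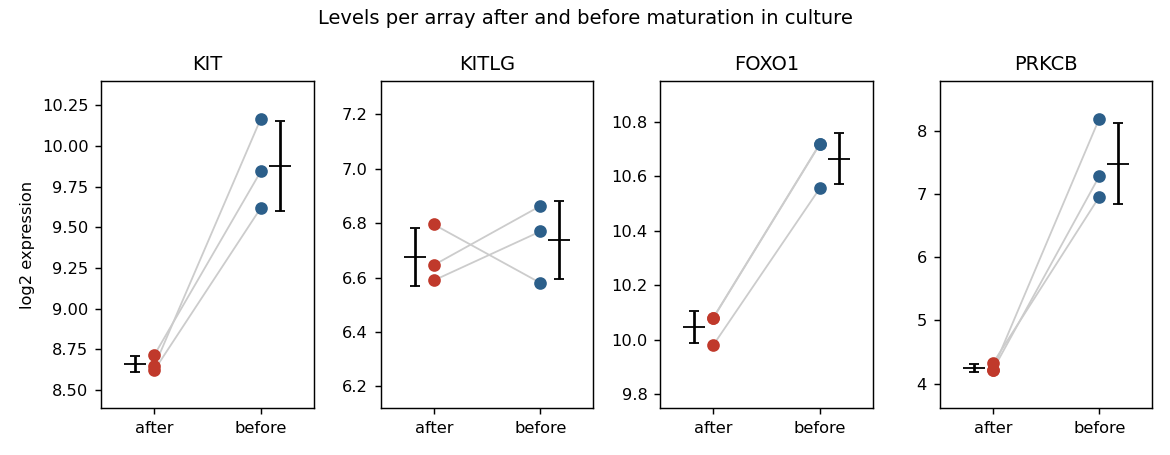
Log2 expression of KIT, its ligand KITLG, and FOXO1 and PRKCB in each array, after maturation on the left and before it on the right of each panel. Points are arrays, grey lines join arrays of the same replicate number, and bars give mean ± SD (n = 3), on a different y axis in each panel. KIT, FOXO1 and PRKCB show no overlap between groups, KITLG does, and replicates 1 and 3 of FOXO1 nearly coincide in each group.

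The ligand gene KITLG did not pass the test between the groups. Its log2 levels were 6.79, 6.65 and 6.59 after maturation, against 6.58, 6.86 and 6.77 before it. The ranges overlapped, and the difference was -0.06 with a 95% interval from -0.31 to 0.19 (limma adjusted p = 0.733). ADAM17, a membrane protease known to release the ligand and the receptor from the cell surface, had log2 levels of 9.89 ± 0.07 after and 9.78 ± 0.15 before maturation. Its difference of 0.11 did not pass the test (limma adjusted p = 0.525). MMP9, a secreted protease known to free the ligand in bone marrow of mice, differed by 0.11 (limma adjusted p = 0.475). In this list 0 of 3 genes were called by limma at an adjusted p under 0.05, and 0 of them had an unadjusted p under 0.05. Over all probes limma called 3.21% higher and 8.07% lower after maturation, and 29.2% had an unadjusted p under 0.05.

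The relatives of KIT among receptors and their ligands showed small measured differences. Of 14 genes 8 were measured, and 0 of these were called by limma, while 2 had an unadjusted p under 0.05 (beside 11.3% and 29.2% of all probes). Their differences ran from -0.09 to 0.28. KDR, the gene of a vascular endothelial growth factor receptor, had log2 levels of 3.70, 3.69 and 3.72 after maturation, against 3.43, 3.47 and 3.51 before it. These levels lay under the lower quartile of every array, and the difference of 0.23 did not pass the test (limma adjusted p = 0.110), although it did with trend and robust set in limma (adjusted p = 0.0442) and with ordinary variances (adjusted p = 0.0466). CSF1, the gene of a ligand of the receptor CSF1R, differed by 0.27 (limma adjusted p = 0.147).

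Among protein-coding genes in the RefSeq table of assembly Sscrofa11.1, KIT stands between PDGFRA and KDR. PDGFRA was not analysed here. Of the 3 protein-coding genes on each side, CHIC2, GSX2 and KDR were measured. CHIC2 had a log2 difference of -0.26 (limma adjusted p = 0.189), and GSX2, a homeobox gene, one of 0.39 (limma adjusted p = 0.113). Neither passed the test.

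Few genes of the pathway passed the test. The 7 lists of the pathway, from ligand to regulators of the KIT transcript, held 79 measured genes of 126. Limma called 3 of them higher (3.80%) and 2 lower (2.53%), and 74 neither. In either direction that is 6.33% of the 79 genes, beside 11.3% of all probes. The median difference of the 79 genes was 0.09, beside 0.08 for all probes. A decrease at least as large as that of KIT was measured for 1 of them, PRKCB.

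The adaptor proteins and kinases that bind the activated receptor had 0 limma calls among 20 measured genes of 31, and 1 unadjusted p under 0.05 (beside 11.3% and 29.2% of all probes). Their differences ran from -0.32 to 0.36 with a median of 0.07, and 12 were positive. GRB2, the adaptor that links receptors to RAS, had log2 levels of 5.92, 5.97 and 6.13 after maturation, against 6.03, 6.31 and 6.61 before it. The groups overlapped for GRB2, and the difference of -0.31 did not pass the test (limma adjusted p = 0.210, 95% interval from -0.65 to 0.04). CRKL, another adaptor, and TEC, a cytoplasmic tyrosine kinase, differed by 0.36 and 0.22 (limma adjusted p = 0.143 and 0.176). With the replicate number as a block the adjusted p of CRKL was 0.0491.

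In the PI3K and AKT branch limma called 1 of 18 measured genes higher and 1 lower, of 30 in the list. In either direction that is 11.1% of the 18, beside 11.3% of all probes. FOXO1, a forkhead transcription factor that AKT holds out of the nucleus, fell to 10.05 ± 0.06 in matured pools, against 10.66 ± 0.09 in pools before maturation (SD, n = 3 each). Its log2 levels were 10.08, 9.98 and 10.08 after maturation, against 10.72, 10.56 and 10.72 before it, without overlap. The difference was -0.62 (limma adjusted p = 0.00439, SE 0.09). FOXO3, the forkhead gene known in mice as the brake on follicle activation, had levels of 8.87, 8.66 and 8.87 after maturation, against 8.66, 8.58 and 8.77 before it. These overlapped, and FOXO3 differed by 0.13 (limma adjusted p = 0.417, 95% interval from -0.10 to 0.37). INPP5D, the gene of the SHIP1 phosphatase that removes the lipid product of PI3K, was called higher by 0.55 (limma adjusted p = 0.0421, SE 0.14).

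The call of INPP5D depended on single arrays. Without replicates 1, 2 and 3 after maturation, each in turn, its adjusted p was 0.137, 0.131 and 0.0755, and without replicates 2 and 3 before it 0.0549 and 0.0574. RPS6KB1, which encodes the S6 kinase of the mTOR pathway, had a log2 difference of -0.52 that was not called (limma adjusted p = 0.130). It was called once the replicate number entered as a block (adjusted p = 0.0238), and also when replicate 1 before maturation was left out (-0.71, adjusted p = 0.0399).

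Of 7 measured genes of the RAS and MAP kinase branch, of 15 in the list, 1 was called higher and 0 lower. That is 14.3% of the 7, beside 11.3% of all probes called in either direction. RPS6KA2, a ribosomal S6 kinase downstream of the MAP kinases, had levels of 4.99, 4.78 and 5.11 in matured pools, against 4.54, 4.47 and 4.43 before maturation. The groups did not overlap, and RPS6KA2 rose by 0.48 (limma adjusted p = 0.0264, SE 0.11). Its adjusted p was 0.0992 and 0.0783 without replicates 1 and 3 after maturation and 0.0695 and 0.0667 without replicates 2 and 3 before it. ARAF, a kinase that RAS activates, differed by 0.47, which was called with the replicate block (adjusted p = 0.0240) and not without it (adjusted p = 0.0719). ARAF was also called without replicate 1 before maturation (adjusted p = 0.0453). The same held with arrays set to a common median (adjusted p = 0.0440) and with ribosomal protein genes held level.

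Among genes that restrain the receptor, 1 of 11 measured genes of 16 was called (9.09%, beside 11.3% of all probes). The called gene, PRKCB, had the largest decrease of the 7 lists. PRKCB encodes the beta form of protein kinase C, a kinase family known from cultured cells to phosphorylate KIT and lower its activity. Its log2 levels were 4.32, 4.21 and 4.22 after maturation, against 6.95, 7.28 and 8.19 before it. The groups lay far apart, and all 3 matured arrays stood under the lower quartile of probe levels. The difference was -3.23 (limma adjusted p = 0.000214, SE 0.27), and its size is not exact because the matured level was that dim.

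CBL, the ubiquitin ligase that marks activated KIT for degradation, had levels of 8.40, 8.03 and 8.15 after maturation, against 8.71, 8.17 and 8.41 before it. The groups overlapped, and the difference of -0.24 did not pass the test (limma adjusted p = 0.331, 95% interval from -0.60 to 0.11). SPRY4, a Sprouty gene whose family dampens RAS signalling, differed by 0.49, which was not called as deposited without the replicate block (adjusted p = 0.0616). It was called with the block (adjusted p = 0.0358) and when replicate 1 before maturation was left out (adjusted p = 0.0129). SPRY4 was also called with a common median (adjusted p = 0.0370), after a second quantile normalization and with ribosomal protein genes held level. With that block 7 of the 79 pathway genes were called higher (8.86%) and 3 lower (3.80%), beside 5.07% and 10.0% of all probes with the same block. Besides those named, GATA2, a transcription factor gene with a difference of 0.42, was among the 7 (adjusted p = 0.0463 with the block, 0.105 without it), and it was also called without replicate 3 after maturation (adjusted p = 0.0473).

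**Figure D2:**
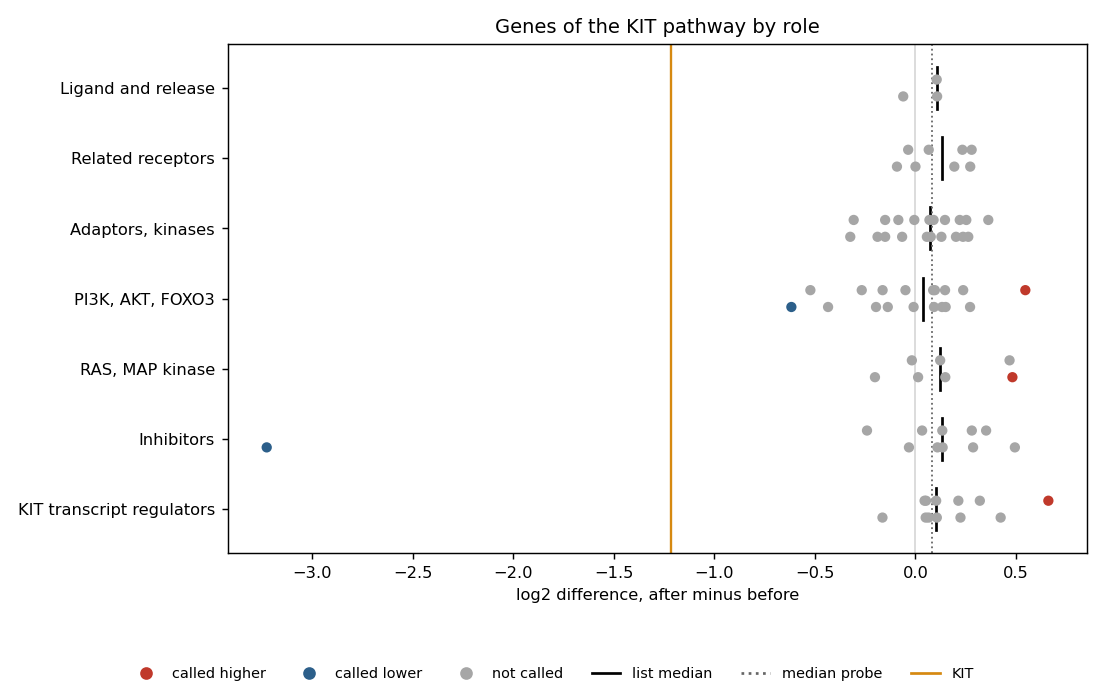
Log2 difference, after minus before maturation, of each measured gene of the KIT pathway, by role. Points are genes, coloured by the limma call over all probes, black bars are list medians, the dotted line is the median probe (0.08) and the orange line is KIT (-1.22). The list medians lie between 0.04 and 0.13, and PRKCB is the only gene of the lists to the left of KIT.

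Regulators that act on KIT in other cells or in mouse oocytes had differences from -0.16 to 0.66. Of 12 measured genes of 17, 1 was called higher and 0 lower (8.33%, beside 11.3% of all probes in either direction). An unadjusted p under 0.05 was found for 4 of the 12, beside 29.2% of all probes. TFAP2C, a member of the AP-2 family whose relative TFAP2A is known to drive KIT in human melanoma cells, had levels of 8.43, 8.10 and 8.32 after maturation, against 7.73, 7.52 and 7.61 before it. It rose by 0.66 without overlap (limma adjusted p = 0.00840, SE 0.11). TFAP2A itself differed by 0.32 (limma adjusted p = 0.0823), with 5 of 6 arrays under the lower quartile. LHX8, a homeobox gene of mouse oocytes whose loss lowers Kit there, had levels of 10.58, 10.60 and 10.45 after maturation, against 10.47, 10.51 and 10.51 before it. Its difference of 0.05 did not pass the test (limma adjusted p = 0.754, 95% interval from -0.16 to 0.25).

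SOHLH1, a germ cell factor needed for Kit in mouse oocytes, differed by 0.21 (limma adjusted p = 0.136, and 0.0477 with ordinary variances), and SP1, a general activator, by -0.16 (limma adjusted p = 0.274). The microRNA genes MIR221 and MIR222, whose products target KIT in human cells, lay under the lower quartile of every array. They were singled out after their values were seen, and mature microRNAs were not analysed here.

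The genes nearest to KIT in pattern were found among 9628 other named genes by the root mean square distance over the 6 arrays, after each gene was centred on its own mean. The nearest was RPRD1B, which encodes a partner of RNA polymerase II, at a distance of 0.0555 log2 units. Its levels were 5.56, 5.54 and 5.60 after maturation, against 6.82, 6.58 and 7.20 before it. As in KIT, replicate 3 was the highest and replicate 2 the lowest of the arrays before maturation. The choice of RPRD1B by likeness to KIT favours that shared order. ACSL6, a long-chain acyl-CoA synthetase gene, followed at 0.0809, and VPS36, a subunit gene of the ESCRT complex that sorts receptors to the lysosome, at 0.0823.

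The other 7 of the nearest 10 were LRRC41, SCUBE3, TMEM254, PLD1, GLT8D1, SCARB2 and ARRDC3, at distances from 0.0960 to 0.110. Of these PLD1 encodes a phospholipase D, SCARB2 a lysosomal membrane protein and ARRDC3 an arrestin-domain protein. Differences of the 10 ran from -1.36 for ACSL6 to -1.05 for GLT8D1, a range that their choice by likeness to KIT fixes. By Pearson correlation over the 6 arrays the 3 highest were BCL11A (0.9996), RPRD1B (0.9987) and ACSL6 (0.9986). BCL11A, a zinc finger transcription factor gene, had a larger difference of -1.93. The 6 arrays form 2 separate groups, so these correlations mostly restate the difference between the groups and carry no test.

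**Figure D3:**
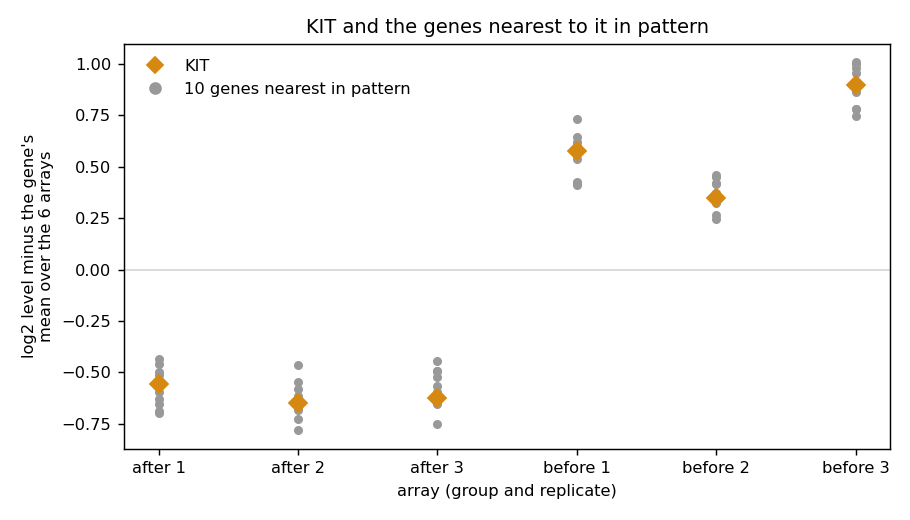
Log2 level of KIT (orange diamonds) and of the 10 genes nearest to it in pattern (grey points) in each array, after subtraction of each gene's mean over the 6 arrays. The 3 arrays after maturation are on the left, and replicate 3 before maturation holds the highest KIT value.

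Markers of the oocyte mostly lay near the median probe. Of 32 oocyte markers 23 were measured, with 0 called higher and 2 lower (8.70%, beside 8.07% of all probes). Their median difference was 0.08, equal to that of all probes at this precision, and 0 of the 23 had a decrease as large as that of KIT. BMP15 and GDF9, growth factor genes of the oocyte, differed by 0.11 and 0.06 (limma adjusted p = 0.395 and 0.681). The 2 called genes were ZP3 and ZP4 of the zona pellucida, the coat of the egg. ZP3 had levels of 10.95, 10.78 and 10.66 after maturation, against 11.70, 11.44 and 11.34 before it. The groups did not overlap, and ZP3 fell by 0.70 (limma adjusted p = 0.0104). ZP4 fell by 0.40 (limma adjusted p = 0.0343), a call that ended without any 1 of the 6 arrays (adjusted p from 0.0640 to 0.0972).

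Set against the mean log2 level of the 23 oocyte markers in the same array, KIT lay at -1.78, -1.82 and -1.83 after maturation, against -0.64, -0.85 and -0.14 before it. The difference on this scale was -1.27, close to that on the deposited scale. The summed linear level of the 23 markers, the sum of 2 raised to each log2 value, was 46883 to 47764 in matured arrays and 45723 to 49282 in arrays before maturation, so it overlapped.

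Most markers of cumulus and granulosa cells that passed the test were lower after maturation, as KIT was. Of 24 such markers 18 were measured, and limma called 10 lower and 2 higher (55.6% and 11.1%, beside 8.07% and 3.21% of all probes) and 6 neither. The list was chosen with earlier results of these data known, so these shares are a description and no independent result. The genes called higher were HSD3B1, of progesterone synthesis, and GSTA1, a glutathione transferase. The median difference of the 18 markers was -0.87. The summed linear level of the 18 was 4120 to 4332 after maturation, against 7223 to 9668 before it, without overlap. None of the 18 lay under the lower quartile of all 6 arrays. GJA1, the gap junction gene that couples cumulus cells and oocyte, had levels of 8.46, 8.80 and 8.65 after maturation, against 10.95, 10.72 and 11.07 before it. GJA1 fell by 2.27 without overlap (limma adjusted p = 2.45e-05).

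The marker nearest to KIT in pattern was NR5A1, the gene of steroidogenic factor 1, at rank 28 of 9628 genes (distance 0.141). The ranks of the 18 cumulus and granulosa markers ran from there to 9628, the farthest of all genes, for HSD3B1. The difference of NR5A1 was -1.23, near that of KIT, and its rank mostly restates this. NR5A1 had levels of 5.95, 5.54 and 5.89 after maturation, against 6.99, 6.93 and 7.17 before it. Set against the mean of the 18 markers in the same array, KIT lay at 2.01, 2.05 and 2.10 after maturation, against 2.46, 2.04 and 2.40 before it. On this scale the groups overlapped and the difference was -0.25. The subtracted mean was itself lower after maturation, at 6.55 to 6.70, against 7.39 to 7.76 before it. It joins 13 markers with negative and 5 with positive differences, up to 3.95 for HSD3B1. The value of -0.25 therefore depends on which markers the list holds. The part of cumulus cells in the level of KIT was not tested.

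**Figure D4:**
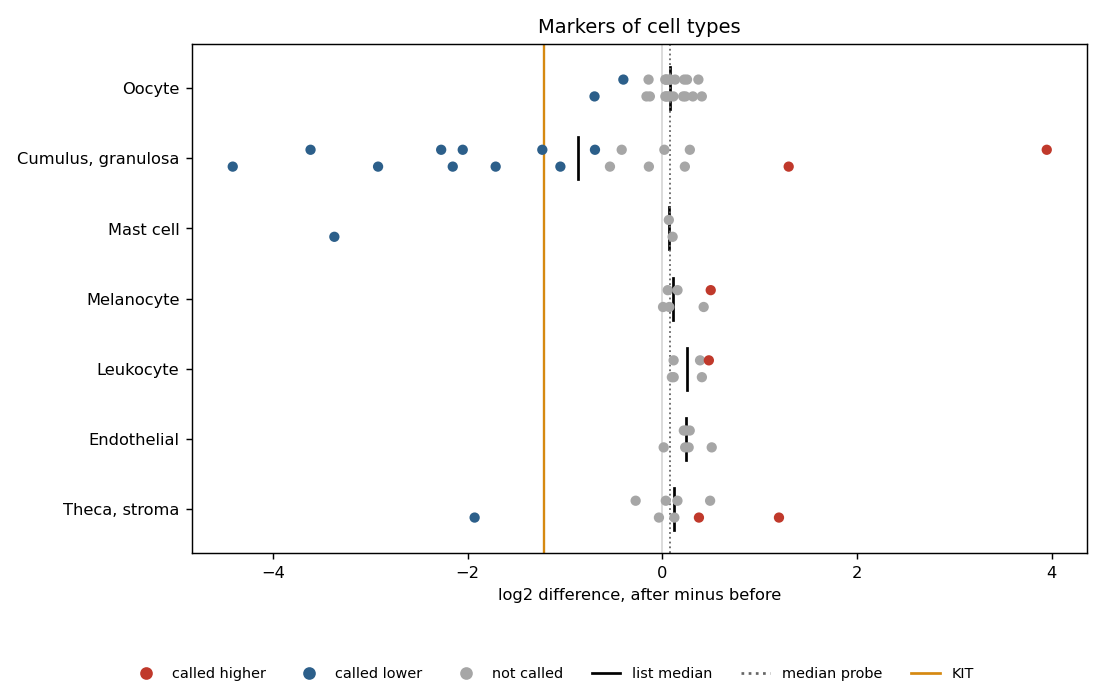
Log2 difference, after minus before maturation, of each measured marker of 7 cell types. Points are genes, coloured by the limma call over all probes, black bars are list medians, the dotted line is the median probe (0.08) and the orange line is KIT (-1.22). Oocyte markers cluster near the median probe, and cumulus and granulosa markers spread from -4.41 to 3.95 with 10 of 18 called lower.

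Mast cells and melanocytes are other cell types known for KIT. Of 9 mast cell markers 3 were measured. MS4A2 and FCER1A, the genes of subunits of the IgE receptor, lay under the lower quartile of all 6 arrays. HDC, the histidine decarboxylase gene, fell by 3.37 (limma adjusted p = 1.64e-05). The summed linear level of the 3 was 58.6 to 69.1 after maturation, against 333 to 511 before it, which was mostly HDC. Among 6 measured melanocyte markers 0 were called lower and 1, DCT, was called higher by 0.50 (limma adjusted p = 0.0466), with its levels above the upper quartile of all 6 arrays. That is 16.7% of the 6, beside 11.3% of all probes called in either direction. MLANA, TYR and TYRP1 lay under the lower quartile of all arrays. The summed linear level of the 6 melanocyte markers was 611 to 727 after maturation, against 457 to 562 before it, which was mostly DCT.

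Leukocyte and endothelial markers also held no decreases that passed the test. Of 6 measured leukocyte markers 0 were called lower and 1, CD3E, was called higher by 0.48 (limma adjusted p = 0.0418). That is 16.7% of the 6, beside 11.3% of all probes called in either direction. Of 7 measured endothelial markers 0 were called by limma, and 2 had an unadjusted p under 0.05 (beside 11.3% and 29.2% of all probes). The calls of DCT and CD3E ended without any 1 array other than replicate 2 before maturation (adjusted p from 0.0636 to 0.138). Of 9 measured theca and stromal markers 2 were called higher and 1 lower (22.2% and 11.1%, beside 3.21% and 8.07% of all probes). Their median difference was 0.12, and their summed linear level was 312 to 325 after maturation, against 328 to 395 before it. Of the 9 differences 6 were positive and 3 negative. The lowest, -1.93, was that of ACTA2, the gene called lower, which was named after its values were seen.

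The level of KIT after minus before maturation stayed negative in all 16 alternatives, from -1.34 without replicate 2 before maturation to -0.71 with ribosomal protein genes held level. That scaling adds the same amount to every probe of an array and moved the median of all probes by 0.50, from which KIT kept a distance of -1.30. Of the named pathway genes it left PRKCB called lower, ended the call of FOXO1 (-0.12, adjusted p = 0.481) and turned KITLG to 0.44 (adjusted p = 0.0121). It called 67 of the 79 pathway genes higher (84.8%), beside 80.3% of all probes. It also ended the call of ZP3 (-0.20) and gave ZP4 a positive value of 0.10.

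**Figure D5:**
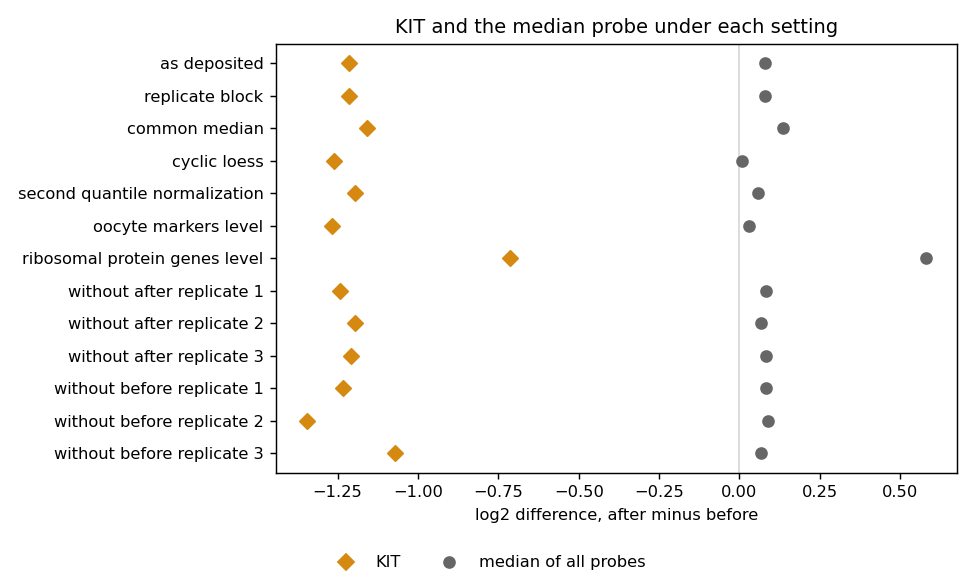
Log2 difference, after minus before maturation, of KIT (orange diamonds) and of the median of all probes (grey points) as deposited, with the replicate block, under 5 scalings and without each array in turn. KIT lies between -1.34 and -0.71 and below the median probe in each.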

How the data were processed

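RNA of 6 pools of porcine oocytes was measured on Affymetrix arrays. The deposited values are log2 expression made by the authors with RMA, per the submitters' processing notes. The sources used here give no version, options or detection calls, and the log2 scale was inferred. Gene names came from the platform's annotation and, by gene identifier, RefSeq (10715 with 1 symbol, 475 with several, 1068 with none; 9629 named genes, with the brightest probe standing for a gene with several).

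Differences after minus before maturation were fitted over all probes in R 4.3.3 with limma 3.58.1 (eBayes, two-sided, Benjamini-Hochberg adjusted, threshold 0.05). The fit was tested on simulated data for this comparison: among 12258 probes, 40 per size, it recovered 35 changed by -1 (log2), 36 changed by 1 and 7 changed by -0.5. KIT and the lists were chosen with earlier results of these data known. Named genes besides KIT were 21 fixed genes (13 measured), up to 5 called genes per pathway list (the 2 with the smallest p where fewer than 2 were called), the measured genes within 3 places of KIT, and the genes nearest in pattern; ZP4, NR5A1, HSD3B1, GSTA1, HDC, DCT, CD3E, RPS6KB1, GATA2 and the receptor kinases of the closing section were named after their values were seen. List members with no measured probe were not analysed here.

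Same-numbered arrays deviated together from their group means (correlations 0.283, 0.120 and 0.142). Between arrays of different numbers the correlations were -0.168 to 0.019. The labels call the numbers biological replicates and no more, so a pairing of the arrays is not known. The unblocked fit is the main one, as fixed, and the fit with the replicate block is given as an alternative. P-values set each difference against the spread between these pools, which limma moderates over all probes, and the number of arrays limits the precision. With 3 arrays a group the smallest exact permutation p is 0.1 (two-sided). Array medians were 5.62 to 5.64 after maturation and 5.67 to 5.70 before it. Python 3.11.15, pandas 2.3.3 and matplotlib 3.10.9 were used for tables and figures. Alternatives were the replicate block, 5 scalings, leaving out dim probes, limma with trend and robust set, ordinary variances, a single probe per gene and leaving out each array.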

Additional observations from a re-analysis of the deposited data

How the results depend on the processing

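KIT's difference of -1.22 was -0.71 with ribosomal protein genes held level, more than 1 SD between replicates away, and -1.34 to -1.07 without single arrays, and moved by less than 1 SD in the other alternatives. The 394 probes called higher became 915 with a common median, 254 with cyclic loess, 222 with oocyte markers level, 596 after a second quantile normalization, 621 with the replicate block, 50 with ordinary variances and 9847 with ribosomal protein genes level, and 103 to 434 without single arrays. The 989 called lower became 147 with ordinary variances, 494 with ribosomal protein genes level and 531 to 1013 without single arrays. The 3 pathway genes called higher became 6 with a common median, 7 with the replicate block, 5 with trend and robust set, 67 with ribosomal protein genes level and 1 to 6 without single arrays, and the 2 called lower became 1 with ordinary variances and 1 with ribosomal protein genes level. KITLG, not called at -0.06, had 0.44 with ribosomal protein genes level, 0.089 after a second quantile normalization and -0.14 to 0.002 without single arrays (0.00198 without replicate 2 before maturation). With ribosomal protein genes level GRB2 (0.19), CBL (0.26), SP1 (0.34), CHIC2 (0.24) and ZP4 (0.10) turned positive. With cyclic loess GDF9 (-0.020), LHX8 (-0.022) and MMP9 (-0.00031) turned negative, and LHX8 also with oocyte markers level (-0.0064). With ordinary variances the calls of PRKCB (adjusted p = 0.0519), TFAP2C (0.0893), ZP3 (0.103), INPP5D (0.170), RPS6KA2 (0.116), ZP4 (0.0975), NR5A1 (0.0545), DCT (0.169), CD3E (0.156), INSR (0.0638), RYK (0.0791), EPHB4 (0.169) and PTK7 (0.102) ended, and KDR and SOHLH1 were called. RPS6KA2 also lost its call with cyclic loess (0.0886) and a second quantile normalization (0.0675). DCT and CD3E lost theirs with cyclic loess (0.0563 and 0.0528) and with oocyte markers level (0.0879 and 0.0623). ZP4 and EPHB4 lost theirs with a common median (0.0511 and 0.0521). ARAF (0.0440), SPRY4 (0.0370) and TFAP2A (0.0443) gained calls with a common median, and SPRY4 and GSX2 after a second quantile normalization. The call of EPHB4 also ended after a second quantile normalization and with ribosomal protein genes level. The causes were not tested, beyond the constant per array that the median, oocyte marker and ribosomal scalings add, and the fewer arrays or degrees of freedom. The replicate block ended no call of a named gene. Detection above background was not assessed.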

Other observations

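KIT belongs to the receptor tyrosine kinases, the receptors for most peptide growth factors. Of 57 other members of this family, listed by membership after the files were seen, 40 were measured. Limma called 2 higher and 3 lower after maturation, 12.5% of them, beside 11.3% of all probes. Their median difference was 0.08, equal at this precision to that of all probes. A decrease at least as large as that of KIT was measured for 2 of the 40, INSR and RYK.

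INSR, the insulin receptor gene, had a mean log2 level of 5.34 after maturation, against 7.003 before it, and fell by 1.66 (limma adjusted p = 0.000724). RYK, a receptor of WNT ligands, had 8.78 after maturation, against 10.02 before it, and fell by 1.25 (limma adjusted p = 0.00198). With ordinary variances the adjusted p of INSR was 0.0638 and that of RYK 0.0791, so neither was called there. EPHB4, an ephrin receptor gene, fell by 0.51 (limma adjusted p = 0.0447), a call that ended without replicate 1 or 2 after maturation and without replicate 1 or 3 before it (adjusted p from 0.0906 to 0.151). NTRK3, a neurotrophin receptor gene, rose by 3.64 (limma adjusted p = 9.14e-07), and PTK7, a receptor without kinase activity, rose by 0.55 (limma adjusted p = 0.0174). The call of PTK7 ended without replicate 2 or 3 after maturation (adjusted p = 0.0704 and 0.0617). IGF1R, the receptor of insulin-like growth factor 1, had 8.87 after maturation, against 9.18 before it, and its difference of -0.31 did not pass the test (limma adjusted p = 0.138).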
